A study of Mus musculus with 4 samples.

Results

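The 49 DNA replication genes followed here are the rows of a deposited count table whose symbol belongs to a fixed list of replication proteins. All 49 were found among the 27179 rows. They comprise 6 genes of the origin recognition complex, 3 licensing factors, 6 subunits of the MCM2-7 helicase, 7 genes of helicase activation, 8 polymerase and primase genes, 6 genes of the sliding clamp and its loader, 3 single-stranded DNA binding genes, 2 genes of Okazaki fragment maturation, 5 genes of nucleotide supply and 3 genes that restore chromatin behind the fork. The samples were group 2 innate lymphoid cells (ILC2s), tissue lymphocytes that make type 2 cytokines without an antigen receptor, sorted from the large intestine of C57BL/6 mice with no genetic change stated. They were expanded for 5 days with IL-33, IL-25, IL-7 and IL-2, each at 10 ng/mL, and then given vehicle or 100 μM deoxycholic acid (DCA), a secondary bile acid made by gut bacteria. RNA-Seq was done on 2 libraries per treatment, and both groups had the same cytokine exposure. The treatment lasted 16 hours by the deposited design text and 24 hours by the study's methods. Nothing states that the 2 libraries of a treatment came from separate mice or cultures. The p-values therefore rest on the spread between these samples, shared in part across genes, and that spread may be technical.

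Replication starts at origins, where the origin recognition complex, CDC6 and CDT1 load the ring-shaped MCM2-7 helicase in G1 phase and geminin blocks a second loading. In S phase, kinases and the assembly of CDC45, MCM2-7 and GINS (the CMG helicase) start unwinding, after which primase and the polymerases copy both strands with the help of PCNA, replication factor C and replication protein A. Many of these genes are transcribed together at the G1/S border under E2F factors, and they are commonly read as a sign that a lymphocyte population is cycling.

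The depth was 35838342 and 26564059 counts in vehicle replicates 1 and 2 and 32102232 and 244165712 counts in DCA replicates 1 and 2, with 12302 to 15592 genes detected. Among markers fixed for the ILC2 label, Gata3 lay between 599 and 838 CPM (counts scaled to library size), Icos between 3315 and 3582 CPM and Il5 between 7707 and 12358 CPM, whereas Thy1 was at 4.24 CPM in DCA replicate 1 and at or under 0.055 CPM elsewhere. Summed markers reached at most 34.6 CPM for T cells, 55.0 CPM for B cells, 24.6 CPM for macrophages and monocytes, 14.3 CPM for epithelial cells, 9.19 CPM for mast cells and basophils, 1.48 CPM for ILC3s and 12.9 CPM for fibroblasts and endothelium. Of the other-cell markers, Cd68 was at 24.2 and 23.9 CPM under vehicle and at 7.30 and 10.2 CPM after DCA, and Tpsab1 at 2.51 and 4.57 CPM and then at 0 counts in both DCA libraries. By edgeR's quasi-likelihood test the unadjusted p was 0.0387 for Cd68 and 0.0139 for Tpsab1. Among ILC2 markers it was 0.0235 for Il1rl1 and 0.0156 for Klrg1, both lower with DCA, and 0.0446 for Il2ra, which was higher. No gene passed an adjusted p of 0.05 in that test. At an unadjusted p under 0.05, 2.57% of all genes tested were higher and 1.7% lower. The part of these markers in the values of the replication genes was not tested.

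All 49 genes were well expressed. Levels are given as CPM after scaling by the trimmed mean of M-values (TMM), and the lowest count of any of the 49 genes in any library was 390. All 49 passed the minimum mean of 1 CPM and were tested among 11184 genes, 48 of them lay above the median level of the genes tested, and 16 lay in the top 10%. Their median level was 145 CPM, against 26.3 CPM for all genes tested. Mean levels ran from 25.6 CPM for Gins3 to 831 CPM for Rrm2. Together the 49 genes took 0.832% and 1.03% of the counts in vehicle replicates 1 and 2 and 0.818% and 0.827% in DCA replicates 1 and 2.

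**Figure D1:**
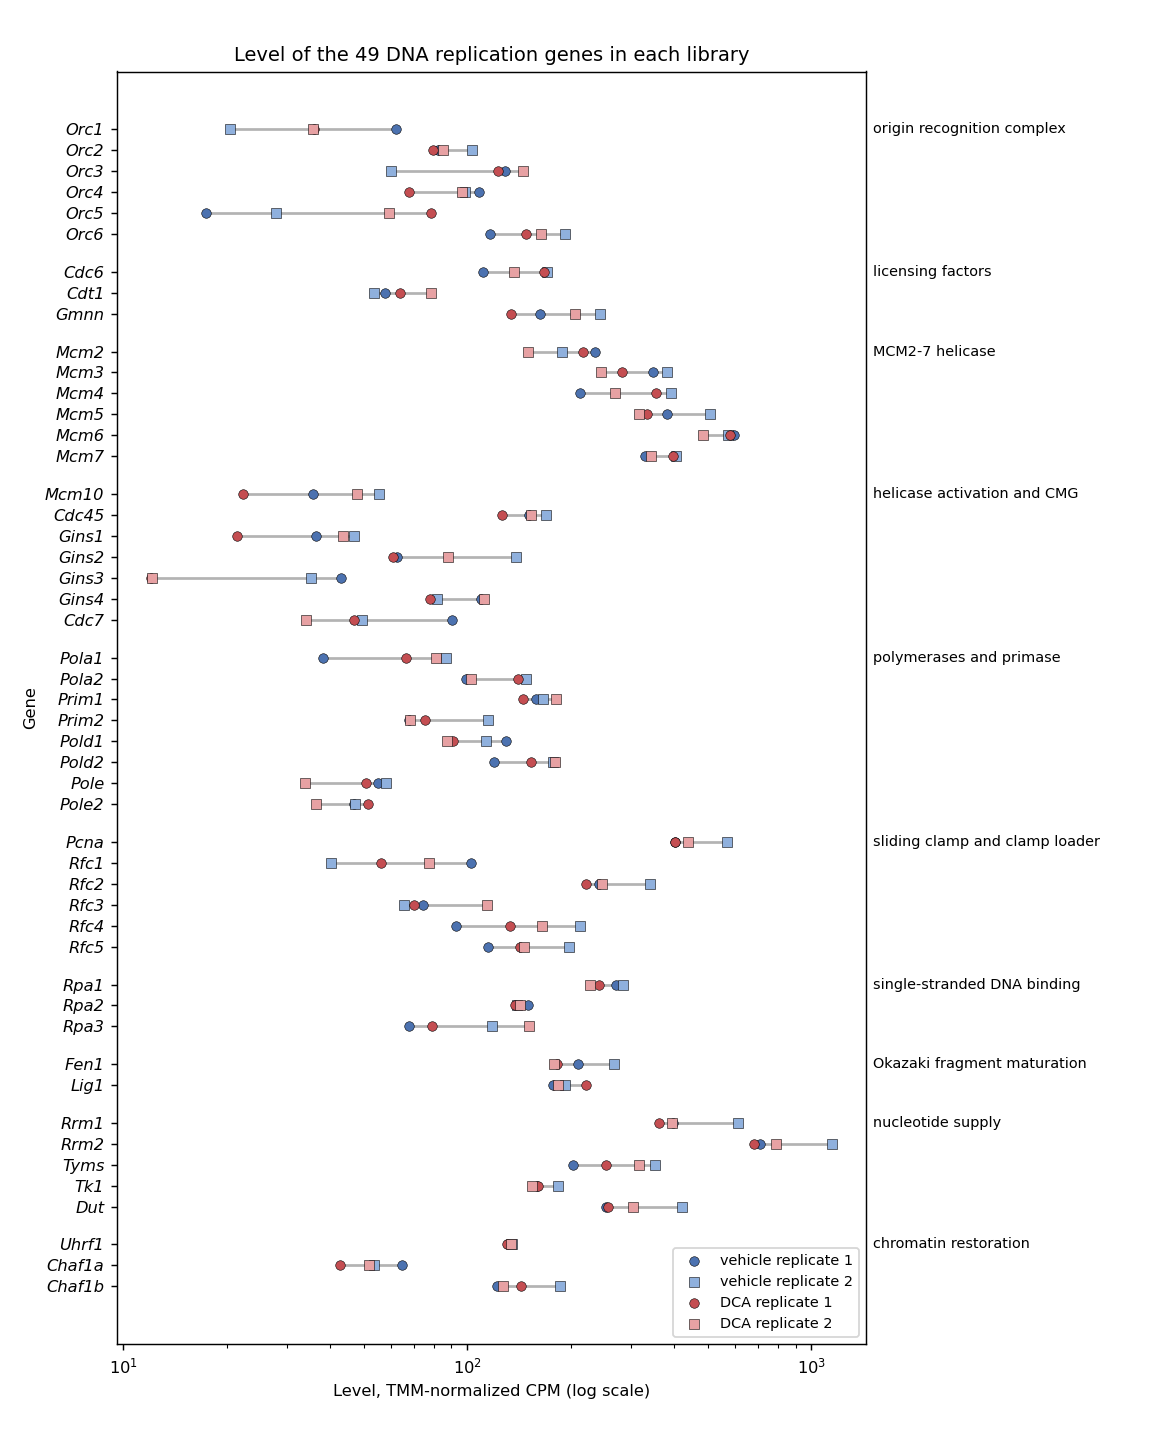
TMM-normalized CPM (log axis) of each of the 49 genes, ordered by role, in the 2 vehicle libraries (blue) and the 2 DCA libraries (red), with a grey line from the lowest to the highest library. Orc5 and Gins3 are the genes whose vehicle and DCA points sit farthest apart, while Uhrf1 has its 4 points on top of each other.

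No replication gene passed an adjusted p of 0.05 between DCA and vehicle (edgeR's quasi-likelihood test, Benjamini-Hochberg adjustment over 11184 genes, two-sided). The same was true of all genes, of which 0% passed, the lowest adjusted p being 0.998, although 36 genes passed without the filter on low values and 126 with DESeq2, none of them replication genes. At an unadjusted p under 0.05, 1 replication gene was higher with DCA (Orc5) and 1 was lower (Gins3). The background at that level was 287 genes higher (2.57%) and 190 genes lower (1.7%), or 477 in all, and with DESeq2 4 replication genes (8.16%) reached it, the other two being Mcm3 and Mcm5, beside 784 of all genes (7.01%). Log2 fold changes ran from -1.69 to 1.61 with a median of -0.17, against a median of 0.01 for all genes tested. Of the 49, 14 had a positive and 35 a negative value. Changes were small as a rule. Of the 49 genes, 26 (53.1%) lay within 0.25 of no change, against 36.2% of all genes tested, and 2 (4.08%) exceeded 1 in size, against 18.1%. These shares were not matched for level, so they are not like for like. The median level was 145 CPM for the 49 genes and 26.3 CPM for all genes tested. In bulk RNA, a difference in the share of cycling cells and a difference in each transcript per cell cannot be told apart.

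Vehicle replicate 2 stood apart in the summed level. The summed level of the 49 genes was 8134 CPM in vehicle replicate 1, 10423 CPM in vehicle replicate 2, 8122 CPM in DCA replicate 1 and 8417 CPM in DCA replicate 2. Vehicle replicate 1 lay at the level of the DCA libraries. The exact permutation test cannot give a p under 0.333 with 2 libraries against 2. Of the 49 genes, 35 were higher in vehicle replicate 2 than in replicate 1, with a median log2 ratio of 0.33, and 29 had their highest level of the 4 libraries there. Over all genes tested, 5350 were higher and 5694 lower in vehicle replicate 2, with a median of -0.03. The ratio of DCA replicate 2 to DCA replicate 1 had a median of 0.10 on the log2 scale. In size, the median log2 difference was 0.49 within the vehicle pair, 0.27 within the DCA pair and 0.23 between treatment means. Over all genes tested these were 0.56, 0.43 and 0.35, in the same order. Within-pair values compare single libraries and the between value compares means of 2, so the sizes are not like for like. The difference between treatments was larger than both differences within treatments for 9 of the 49 genes (18.4%), against 19.6% of all genes tested. Without vehicle replicate 2 the median log2 fold change of the 49 genes was 0.0023, with 26 positive and 23 negative values. It was -0.31 (8 positive, 41 negative) without vehicle replicate 1. Without DCA replicate 1 it was -0.13 (17 positive, 32 negative), and without DCA replicate 2 it was -0.20 (13 positive, 36 negative).

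**Figure D2:**
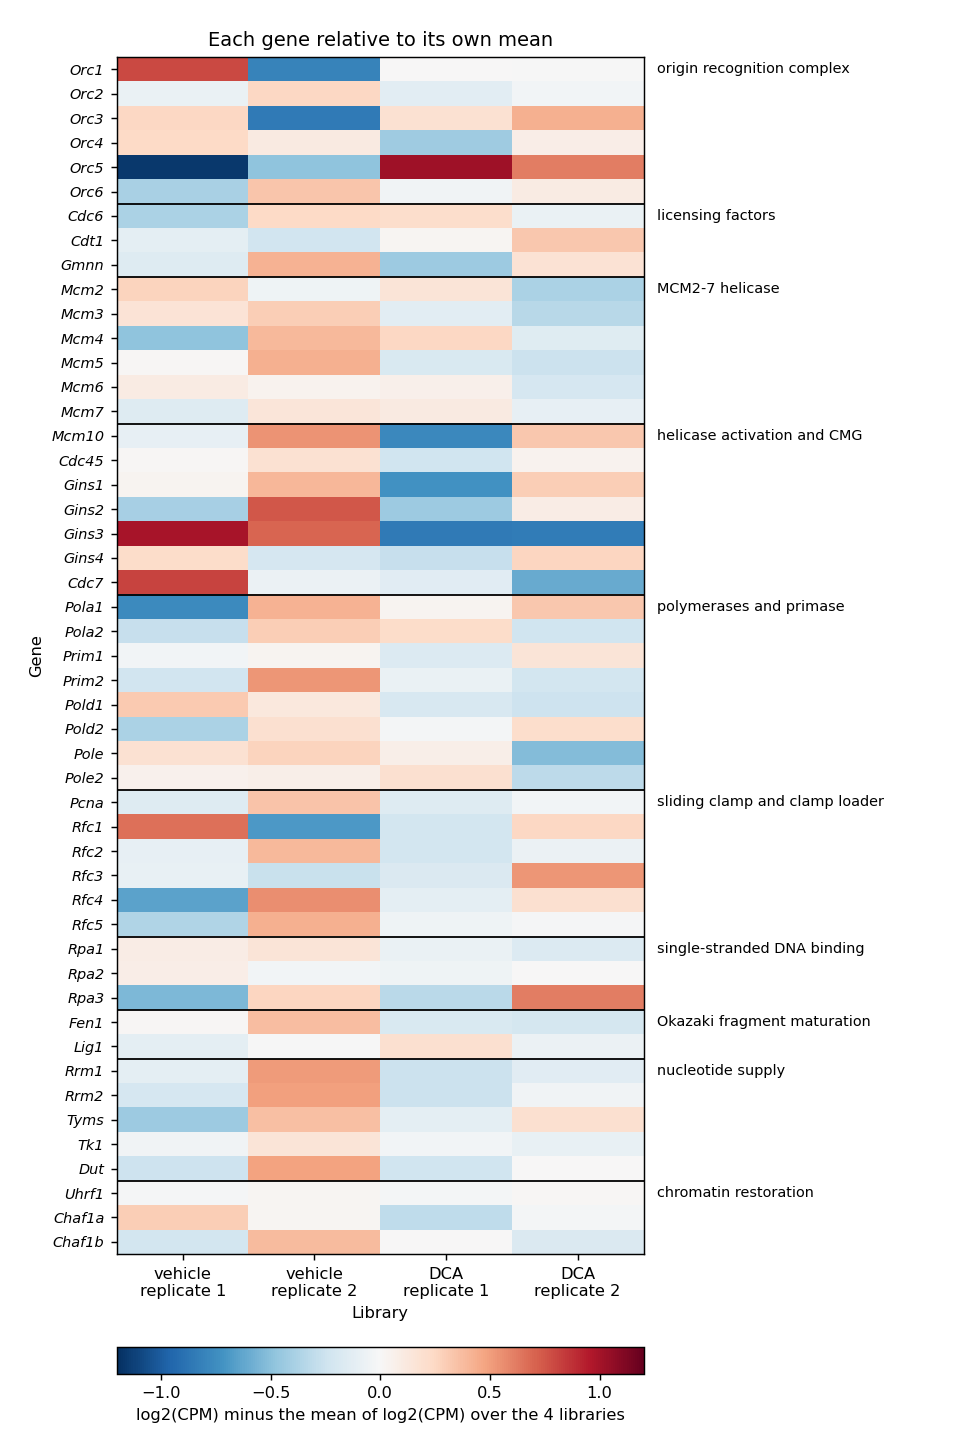
Level of each of the 49 genes in each library relative to that gene's own mean, as log2(CPM) minus the mean of log2(CPM) over the 4 libraries (red above, blue below). The column of vehicle replicate 2 is mostly red, being the highest library for 29 genes, and the rows of Orc5 and Gins3 change color between the vehicle and DCA columns.

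Separation without overlap was counted next. In 2 of the 49 genes (Orc5 and Cdt1) the DCA libraries both exceeded the vehicle ones, against a background of 18.8% of all genes tested. In 11 genes (Orc4, Mcm3, Mcm5, Gins3, Cdc7, Pold1, Pole, Rpa1, Fen1, Rrm1 and Chaf1a) they both fell short of the vehicle ones, against a background of 14.5%. In the remaining 36 genes the treatments overlapped. Across the 4 libraries, the highest level was under 1.5 times the lowest for 17 genes and the fold between them had a median of 1.59.

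**Figure D3:**
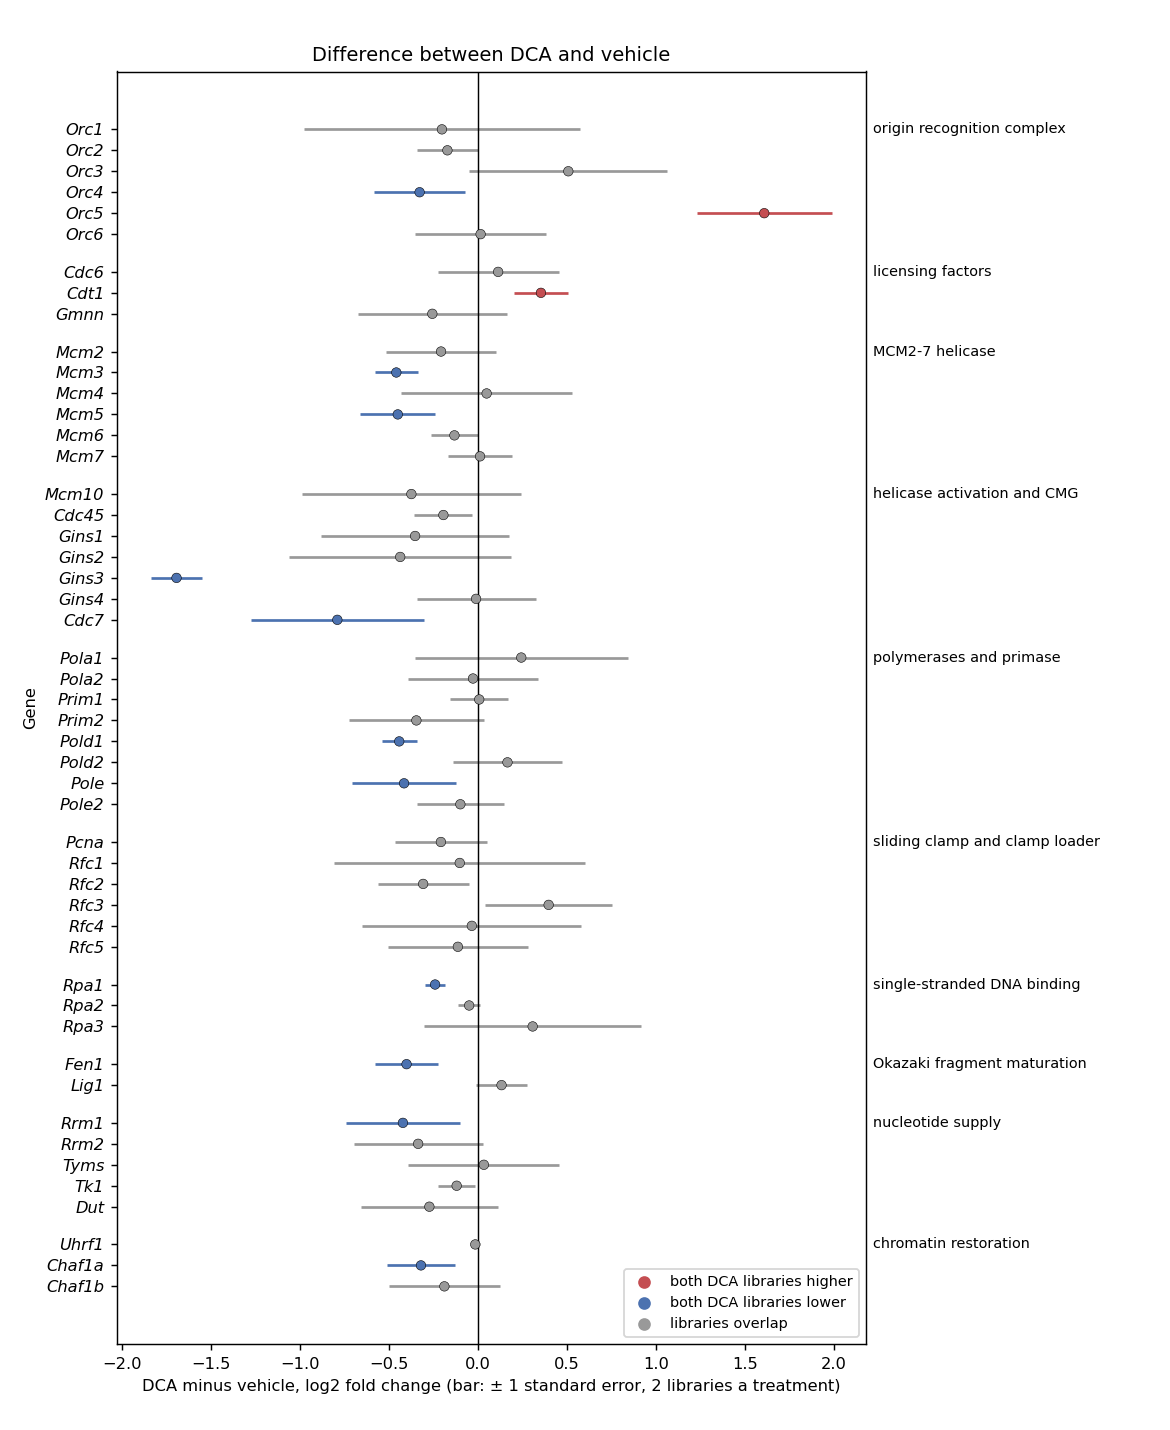
Log2 fold change, DCA minus vehicle, of each of the 49 genes from edgeR, with bars of 1 standard error from the spread between libraries (2 a treatment). Red points mark the 2 genes with both DCA libraries higher, blue points the 11 genes with both lower, and grey points the 36 genes whose libraries overlap.

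Promoter sequence played no part in choosing these genes. Windows from 250 bases before to 50 bases after the annotated start (RefSeq, GRCm38.p6) were on hand for 41 of the 49 genes. They were searched on both strands for the E2F words TTTCCCGC, TTTCGCGC, TTTGCCGC and TTTGGCGC, for CCAAT, the box bound by NF-Y, and for TTTGAA, the cell cycle homology region (CHR) of many mitotic genes. Words may overlap each other and were then counted separately. An E2F word was present in 15 of the 41 genes (36.6%), against 704 of 27025 genes with a window (2.61%) and 5.10% of the genes tested in these cells. CCAAT was present in 61.0% of the 41 genes, 41.1% of all genes with a window and 43.8% of the genes tested, and TTTGAA in 14.6%, 20.2% and 14.3%. The median GC content of the windows was 61.3% for the replication genes, 60.7% for the genes tested and 52.7% for all. A match is a description of letters and not a binding site.

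E2F words were found for 4 of 5 MCM2-7 genes with a window, both licensing factors with one (Cdc6 and Cdt1), 3 of 6 polymerase and primase genes, and none of the 5 nucleotide supply genes or the 3 single-stranded DNA binding genes. More than 1 word stood in the windows of Mcm3, Mcm5, Mcm6, Mcm7 and Rfc3. The 15 genes with a word had a median log2 fold change of -0.02 (7 positive, 8 negative) and the 26 genes without one a median of -0.18 (6 positive, 20 negative). The windows shown are those of the 2 genes at the ends of the range of change (Gins3 and Orc5) and of 2 helicase genes with several words (Mcm3 and Mcm6), each read 5′ to 3′ on the gene's strand with E2F words in capitals. Positions count from the start base as 0 to the first base of the word. The Gins3 window, chr8:95633309-95633608 on the plus strand, holds 1 word at -41. The Orc5 window, chr5:22550289-22550588 on the minus strand, holds none of the 3 motifs. The Mcm3 window, chr1:20820263-20820562 on the minus strand, holds words at 19 and 38. The Mcm6 window, chr1:128359656-128359955 on the minus strand, holds 2 overlapping words at -110 and -106 and another at -47.
Gins3: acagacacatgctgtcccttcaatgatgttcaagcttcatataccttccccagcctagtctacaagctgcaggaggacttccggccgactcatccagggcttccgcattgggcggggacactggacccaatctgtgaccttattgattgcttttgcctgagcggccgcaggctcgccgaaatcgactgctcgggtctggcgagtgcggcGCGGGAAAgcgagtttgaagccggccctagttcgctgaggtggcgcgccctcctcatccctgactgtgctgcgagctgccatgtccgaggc
Orc5: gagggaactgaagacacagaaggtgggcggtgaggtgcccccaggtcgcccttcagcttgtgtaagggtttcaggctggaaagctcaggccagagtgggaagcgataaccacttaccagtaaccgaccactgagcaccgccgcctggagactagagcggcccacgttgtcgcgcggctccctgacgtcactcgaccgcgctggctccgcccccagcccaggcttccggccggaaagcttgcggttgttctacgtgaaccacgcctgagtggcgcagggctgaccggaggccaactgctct
Mcm3: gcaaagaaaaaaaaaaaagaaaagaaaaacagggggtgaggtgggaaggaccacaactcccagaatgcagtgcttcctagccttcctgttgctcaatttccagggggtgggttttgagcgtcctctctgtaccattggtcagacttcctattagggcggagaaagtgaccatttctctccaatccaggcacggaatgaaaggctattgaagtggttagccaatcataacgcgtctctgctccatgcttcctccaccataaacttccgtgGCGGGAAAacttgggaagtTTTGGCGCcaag
Mcm6: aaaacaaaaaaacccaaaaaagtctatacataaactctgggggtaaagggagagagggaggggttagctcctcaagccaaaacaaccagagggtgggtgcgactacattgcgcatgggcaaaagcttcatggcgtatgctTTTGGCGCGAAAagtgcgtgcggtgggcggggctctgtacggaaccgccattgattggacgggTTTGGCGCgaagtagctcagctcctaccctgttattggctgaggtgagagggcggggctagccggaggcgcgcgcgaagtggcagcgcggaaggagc

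**Figure D4:**
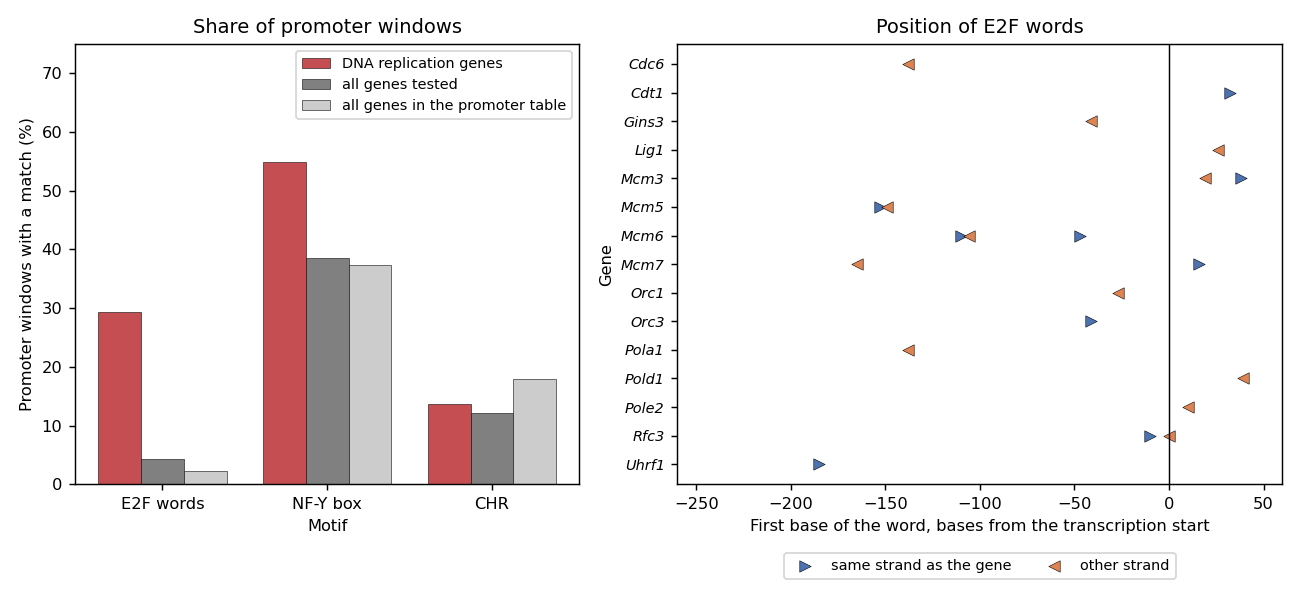
Left, percentage of promoter windows with an E2F word, a CCAAT box (NF-Y box) or TTTGAA (CHR) for the replication genes, for all genes tested and for all genes of the promoter table. Right, distance in bases from the transcription start to the first base of each of the 21 E2F words found in the 15 genes, with the marker pointing by strand. E2F words stand in 29.4% of the replication gene windows, 4.23% of the windows of genes tested and 2.26% of all windows.

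Among the 6 genes of the origin recognition complex, which marks origins for helicase loading, Orc5 was the exception. Orc5 (chromosome 5, 22486480 to 22550338 on GRCm38) encodes an ATP-binding subunit of the complex and was at 17.4 and 27.9 CPM under vehicle and at 78.6 and 59.4 CPM after DCA, from 639, 731, 2541 and 14264 counts. Both DCA libraries lay above both vehicle libraries by more than either pair differed within itself. The log2 fold change was 1.61 (SE 0.38, n = 2 and 2, edgeR's quasi-likelihood test, unadjusted p = 0.00653, adjusted p = 0.998), and it lay between 1.29 and 1.98 with each library left out. Its unadjusted p was 0.0679 without DCA replicate 1. Exons of Orc5 share 90 bases with a processed pseudogene on the same strand, Gm15421, so that stretch of reads cannot be assigned with certainty. Orc4, another ATP-binding subunit, was at 108 and 98.3 CPM under vehicle and at 68.0 and 96.3 CPM after DCA (log2 fold change -0.33, SE 0.26, and -0.10 without DCA replicate 1), a narrow separation. Orc6, the smallest subunit and the most abundant of the group, was at 116 and 193 CPM under vehicle and at 149 and 164 CPM after DCA, so the DCA libraries sat inside the vehicle range. Its log2 fold change of 0.01 was negative (-0.02) under median-of-ratios scaling. Orc1, the largest subunit, ran from 20.5 CPM in vehicle replicate 2 to 62.0 CPM in vehicle replicate 1, with both DCA libraries between them. Orc2 spanned 79.4 to 103 CPM and Orc3 60.1 to 145 CPM over the 4 libraries, both with overlap.

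Per kilobase of exon, Orc6 was the highest subunit, at 97.3 ± 19.9 CPM per kb (mean and SD over the 4 libraries), and its range did not touch that of Orc3, the next at 49.7 ± 16.2 CPM per kb. The order below it was Orc2, Orc5, Orc4 and Orc1, with overlapping ranges between each pair of neighbors. By coding length Orc4 came next after Orc6, and the highest mean was 12.9 times the lowest, against 7.61 times per kilobase of exon.

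Licensing factors were split in direction. Cdt1, which brings MCM2-7 to origins, was at 57.8 and 53.8 CPM under vehicle and at 64.0 and 78.5 CPM after DCA. The groups did not overlap, and the log2 fold change was 0.35 (SE 0.15, unadjusted p = 0.280 in edgeR's quasi-likelihood test), or 0.20 without DCA replicate 2. Gmnn, encoding geminin, the inhibitor of CDT1, was at 163 and 244 CPM under vehicle and at 134 and 206 CPM after DCA (log2 fold change -0.26, SE 0.42), with overlap. Cdc6, the loader ATPase, ranged from 111 to 170.3 CPM with the lowest and the highest library both in the vehicle group. Per kilobase of exon Gmnn was at 157 ± 40.3 CPM per kb, apart from Cdc6 at 30.6 ± 5.86 CPM per kb, which overlapped Cdt1.

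The 6 MCM2-7 genes, subunits of the replicative helicase, were among the most abundant of the 49, with a median level of 341 CPM. Their sum was 2098 and 2444 CPM under vehicle and 2165 and 1808 CPM after DCA, so DCA replicate 1 lay between the vehicle libraries. Mcm3 was at 346 and 380.0 CPM under vehicle and at 283 and 246 CPM after DCA (log2 fold change -0.46, SE 0.12, unadjusted p = 0.0740 in edgeR's quasi-likelihood test). Mcm5 was at 380.2 and 507 CPM under vehicle and at 333 and 316 CPM after DCA (log2 fold change -0.45, SE 0.21, unadjusted p = 0.0995 in the same test). Both were lower in each DCA library than in each vehicle library, and the Mcm5 value was -0.23 without vehicle replicate 2. Mcm6, the most abundant subunit, was at 594 and 573 CPM under vehicle and at 581 and 484 CPM after DCA (log2 fold change -0.13, SE 0.13, and -0.0074 without DCA replicate 2), with overlap. Mcm2, Mcm4 and Mcm7 overlapped too, and Mcm4 spanned the widest range of the 6 as a fold, from 213 to 390.1 CPM between the vehicle libraries alone. All 6 subunits were lower in DCA replicate 2 than in DCA replicate 1, with a median log2 ratio of -0.23.

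The MCM2-7 proteins form a ring with 1 copy of each. Their order per kilobase of exon was Mcm6 (128 ± 11.4 CPM per kb), Mcm7 (124 ± 12.8), Mcm5 (111 ± 25.0), Mcm3 (103 ± 20.0), Mcm4 (85.4 ± 22.4) and Mcm2 (58.7 ± 11.1). Every pair of neighbors in that order overlapped over the 4 libraries, but Mcm2 lay wholly below Mcm3, Mcm5, Mcm6 and Mcm7. The highest mean was 2.17 times the lowest, or 3.10 times by coding length. Exons of Mcm7 overlap those of Ap4m1 and Cops6 on the other strand, and a processed pseudogene, Gm5487, is 97.7% identical over 2157 bases, so its level is uncertain to that extent.

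All 7 genes of helicase activation had a negative log2 fold change, with a median of -0.37. Without DCA replicate 1 the median was -0.06 and Mcm10, Gins1 and Gins4 were positive, and 1 of the 7 was positive without either vehicle library in turn. Their sum was 529 and 577 CPM under vehicle and 368 and 491 CPM after DCA, without overlap. Sums of other role groups were without overlap too. The origin recognition complex summed to 515 and 502 CPM under vehicle and 533 and 585 CPM after DCA. The chromatin genes summed to 319 and 375 CPM under vehicle and 317 and 312 CPM after DCA. With 2 libraries against 2 the exact permutation test cannot give a p under 0.333. Gins3 (chromosome 8, 95633559 to 95645059), one of the 4 GINS subunits of the CMG helicase, was at 43.1 and 35.2 CPM under vehicle and at 12.1 and 12.1 CPM after DCA, from 1580, 923, 390 and 2914 counts. The DCA libraries had the same level despite their difference in depth, and both lay far below the vehicle libraries. The log2 fold change was -1.69 (SE 0.14, n = 2 and 2, edgeR's quasi-likelihood test, unadjusted p = 0.00783, adjusted p = 0.998), and it lay between -1.83 and -1.56 with each library left out. Its unadjusted p was 0.050 when DCA replicate 1 was left out and 0.0523 when DCA replicate 2 was. No other gene's exons overlap those of Gins3 in GENCODE vM21.

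The other GINS subunits showed no such separation. Gins1 ranged from 21.4 to 46.8 CPM, Gins2 from 61.0 to 139 CPM and Gins4 from 77.8 to 112 CPM, and in each the treatments overlapped. Gins2 exons also overlap those of Gse1 on the other strand over 2758 bases. Per kilobase of exon, Gins3 stood at 15.9 and 13.0 CPM per kb with vehicle and 4.45 and 4.48 CPM per kb with DCA, and Gins4, the highest subunit, at 70.7 ± 13.4 CPM per kb. By coding length the order of the 4 changed, with Gins2 highest.

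Cdc7, the catalytic subunit of the kinase that phosphorylates MCM2-7, was at 90.5 and 49.4 CPM under vehicle and at 46.9 and 34.0 CPM after DCA (log2 fold change -0.79, SE 0.49, unadjusted p = 0.101 in edgeR's quasi-likelihood test). The groups were separate, but the gap between vehicle replicate 2 and DCA replicate 1 was smaller than the spread within either pair. The log2 fold change was -0.31 without vehicle replicate 1 and -1.16 without vehicle replicate 2. Cdc45, the CMG member that bridges MCM2-7 and GINS, was at 151 and 169 CPM under vehicle and at 126 and 153 CPM after DCA (log2 fold change -0.19, SE 0.16, and -0.06 without DCA replicate 1). Mcm10, an activator of CMG, ranged from 22.4 to 55.5 CPM, with the lowest value in DCA replicate 1 and the highest in vehicle replicate 2.

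Polymerase and primase genes gave both directions, with a median log2 fold change of -0.06. Pold1, the catalytic subunit of polymerase delta, which copies the lagging strand, was at 129.6 and 113 CPM under vehicle and at 91.2 and 87.6 CPM after DCA (log2 fold change -0.44, SE 0.10, unadjusted p = 0.127 in edgeR's quasi-likelihood test). Pole, the catalytic subunit of polymerase epsilon, which copies the leading strand, was at 54.9 and 58.1 CPM under vehicle and at 50.9 and 33.8 CPM after DCA (log2 fold change -0.42, SE 0.29, and -0.15 without DCA replicate 2). Both catalytic genes were lower in each DCA library. Of the subunits that accompany them among the 49 genes, Pold2 (119.5 to 180.0 CPM) and Pole2 (36.4 to 51.4 CPM) overlapped between treatments. Pold3, a polymerase delta subunit outside the 49, did not overlap. It was at 123 and 120 CPM under vehicle and at 80.7 and 90.5 CPM after DCA (log2 fold change -0.51). Prim1, the catalytic primase subunit and the most abundant of the group, was at 159 and 167 CPM under vehicle and at 145 and 181 CPM after DCA, and its log2 fold change of 0.01 was negative under 8 of 13 alternatives, at -0.16 to -0.0019. Pola1 and Pola2 of polymerase alpha and Prim2, the large primase subunit, overlapped, and the lowest Pola1 library (38.2 CPM) and the highest (86.6 CPM) were both vehicle. Per kilobase of exon, Prim1 and Pold2 were highest with overlapping ranges, and Pole was lowest of all 49 genes at 6.66 ± 1.46 CPM per kb.

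All 6 genes of the clamp and its loader overlapped between treatments. Pcna, the sliding clamp that holds polymerases on DNA, was at 402 and 569 CPM under vehicle and at 402 and 438 CPM after DCA (log2 fold change -0.21, SE 0.26). Vehicle replicate 1 and DCA replicate 1 had the same level, and the negative value rests on vehicle replicate 2. Without that library the log2 fold change was 0.07. The 5 subunits of replication factor C, which loads the clamp, ranged most widely, as a fold, for Rfc1 (40.3 to 103 CPM) and Rfc4 (92.6 to 213 CPM), in each case between the 2 vehicle libraries. Rfc3 was highest in DCA replicate 2, at 114 CPM against 65.6 to 74.5 CPM in the other 3 libraries. All 6 genes were higher in DCA replicate 2 than in DCA replicate 1. Pcna has a processed pseudogene, Pcna-ps2, 99.2% identical over 781 bases, which the counting could have shared reads with. Per kilobase of exon Pcna was at 298 ± 52.4 CPM per kb, apart from every loader subunit, the next being Rfc4 at 115 ± 38.9 CPM per kb.

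Replication protein A coats single-stranded DNA as a complex of 3 subunits. Rpa1, the largest, was at 271 and 284 CPM under vehicle and at 242 and 227 CPM after DCA (log2 fold change -0.24, SE 0.06, unadjusted p = 0.293 in edgeR's quasi-likelihood test), a small but separate difference. Rpa2 was nearly flat, between 137 and 150.5 CPM. Rpa3 ranged from 67.9 to 151 CPM, and both replicate 2 libraries were above both replicate 1 libraries.

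Of the pair acting on Okazaki fragments, Fen1, the flap endonuclease, was at 209.7 and 268 CPM under vehicle and at 182 and 179 CPM after DCA (log2 fold change -0.40, SE 0.18, unadjusted p = 0.137 in edgeR's quasi-likelihood test). The groups were separate, and the log2 fold change was -0.21 without vehicle replicate 2. Exons of an antisense gene, Gm10143, overlap 1909 bases of Fen1, and the sources used here do not say whether counting used strand. Lig1, the ligase that seals the fragments, ranged from 178 to 221 CPM with its highest value in DCA replicate 1, and overlapped.

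The 5 nucleotide supply genes were all highest in vehicle replicate 2, and their sum was 1722 and 2717 CPM under vehicle and 1711 and 1955 CPM after DCA. Rrm2, the regulated subunit of ribonucleotide reductase and the most abundant of the 49 genes, was at 709 and 1147 CPM under vehicle and at 680.2 and 789.6 CPM after DCA (log2 fold change -0.34, SE 0.36). Its log2 fold change was 0.05 without vehicle replicate 2. Rrm1, the large subunit, was at 396 and 613 CPM under vehicle and at 360.1 and 393 CPM after DCA (log2 fold change -0.42, SE 0.32, unadjusted p = 0.165 in edgeR's quasi-likelihood test). The separation of Rrm1 was narrow, set by vehicle replicate 1 and DCA replicate 2, and its log2 fold change was -0.07 without vehicle replicate 2. Tyms and Tk1, which make thymidylate, and Dut, which removes dUTP, overlapped, Tyms between 203 and 352 CPM, Tk1 between 154 and 183 CPM and Dut between 254 and 422 CPM. Rrm2 had the highest level per kilobase of exon of all 49 genes, at 379 ± 98.2 CPM per kb. A processed pseudogene, Gm48455, is 95.5% identical to Rrm2 over 419 bases, so the Rrm2 level is uncertain to that extent.

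Among the genes that restore chromatin, Chaf1a, the large subunit of the histone chaperone CAF-1, was at 64.5 and 53.6 CPM under vehicle and at 42.7 and 51.9 CPM after DCA (log2 fold change -0.32, SE 0.19, and -0.19 without DCA replicate 1). The groups were narrowly separate, and 4648 bases of its exons overlap Ubxn6 on the other strand. Chaf1b, its partner, was at 122 and 186 CPM under vehicle and at 144 and 127 CPM after DCA (log2 fold change -0.19, SE 0.31), with overlap. Uhrf1, which guides DNA methylation to the new strand, was the steadiest of the 49 genes, at 132 and 135 CPM under vehicle and at 130.3 and 134 CPM after DCA. The fold between its highest and lowest library was 1.04. A processed pseudogene, Gm5648, is 98.3% identical to Uhrf1 over 1590 bases, so the Uhrf1 level is uncertain to that extent.

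Other genes of the replication and division programs were read from lists not used to choose the 49. Of 39 other replication factors, none passed an unadjusted p of 0.05, with a median log2 fold change of -0.11. Of 27 E2F and G1/S regulators, 1 was higher, Lin37, a subunit of the DREAM repressor complex, at 48.4 and 47.2 CPM under vehicle and at 100.5 and 83.9 CPM after DCA (log2 fold change 0.95, unadjusted p = 0.0156 in edgeR's quasi-likelihood test), and the median was -0.02. Of 24 genes of fork protection and the S-phase checkpoint, 1 was lower, Msh6, a mismatch repair protein that travels with PCNA, at 121 and 111 CPM under vehicle and at 61.6 and 58.0 CPM after DCA (log2 fold change -0.95, unadjusted p = 0.0102 in the same test), and the median was -0.13. None of these passed an adjusted p of 0.05. The background share at an unadjusted p under 0.05 was 2.57% higher and 1.7% lower. Whether 1 gene in a list of this size exceeds that background was not tested.

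Mitosis markers moved with the same library. The 20 markers summed to 2601 and 4303 CPM under vehicle and 2774 and 2977 CPM after DCA, and 17 of the 20 were higher in vehicle replicate 2 than in replicate 1. Mki67, the proliferation marker, was at 123 and 429.9 CPM under vehicle and at 185 and 251 CPM after DCA. The median log2 fold change of the list was -0.25, and 1 marker, Cenpf, a kinetochore protein, reached an unadjusted p of 0.0326 (84.6 and 101 CPM with vehicle, 54.3 and 54.9 CPM with DCA, log2 fold change -0.77). The 13 mitochondrially encoded genes, used as a sign of RNA composition, summed to 20654 and 14774 CPM under vehicle and 10241 and 12612 CPM after DCA. In edgeR's quasi-likelihood test, ND1, COX1 and CYTB of the 12 tested were lower at an unadjusted p under 0.05. Of all genes tested, 1.7% were lower at that level. All 12 had a negative log2 fold change, with a median of -0.61. Both DCA libraries were lower in 8 of the 12, against 14.5% of all genes tested. The part of cycling state or RNA composition in the values of the replication genes was not tested.

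**Figure D5:**
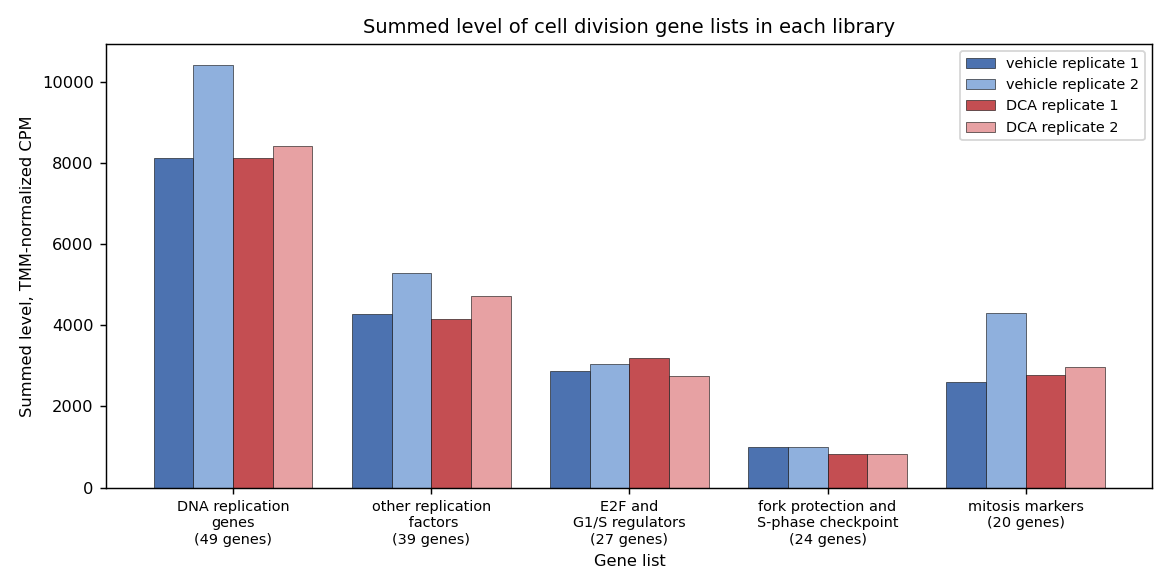
Summed TMM-normalized CPM of the 49 replication genes and of 4 other lists in each library, with bars starting at 0. Vehicle replicate 2 is the tallest bar for the replication genes (10423 CPM), the other replication factors (5296 CPM) and the mitosis markers (4303 CPM), while DCA replicate 1 is the tallest for the E2F and G1/S regulators (3207 CPM).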

How the data were processed

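ILC2s were sorted as CD45.2+ Lin- CD127+ KLRG1+ cells. Libraries were made with the SMART-Seq HT and Nextera XT kits and sequenced as paired-end reads. Per the labels and the study's methods, trimming by the authors used Cutadapt 1.9 and alignment to mm10 used HISAT2 2.2.1. The counting tool, its annotation and its use of strand are not given in the sources used here. The table deposited by the authors is named for FPKM but holds raw counts, since its values are whole numbers with different totals per library, and was analysed as counts. Its 4 columns were matched to samples by their names.

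The 11184 genes averaging 1 CPM or more were tested with edgeR 4.0.16 (TMM, glmQLFit, glmQLFTest, Benjamini-Hochberg adjustment, R 4.3.3), DCA against vehicle with no covariate, and the script was tested on simulated data. Standard errors were taken from the library-to-library spread of each gene in log2(CPM + 1). They are not part of the edgeR test, which moderates the spread of each gene toward that of other genes. A small standard error therefore need not go with a small p. With 2 libraries a treatment the precision is set by their spread, and a count of 0 allows up to 3 counts. Exon lengths, overlaps and copies came from GENCODE vM21 and promoters from RefSeq GRCm38.p6. Copies were transcripts of other genes that matched at 95% identity or more over 200 bases or more. Alternatives were DESeq2 1.42.0, limma 3.58.1, other scalings and filters, thinning of DCA replicate 2, a replicate block and leaving out each library. The members and lists were chosen with earlier results of these data known. Values per library are given for the most abundant gene of each role group and for those past an unadjusted p of 0.05 or without overlap, and other genes named were chosen after their values were seen.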

Additional observations from a re-analysis of the deposited data

How the results depend on the processing

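No replication gene passed an adjusted p of 0.05 under any of the 13 alternatives run, and the lowest was 0.0765 for Orc5 with DESeq2. Over all genes, the number past an adjusted p of 0.05 was 0 with edgeR's quasi-likelihood test, 36 without a filter, 126 with DESeq2 and 0 to 20 with a library left out. The number of replication genes at an unadjusted p under 0.05 was 2, and it was 4 with DESeq2, 3 without a filter and 0 to 7 with a library left out (0 and 1 on leaving out the first or second DCA library, 7 and 4 on leaving out the first or second vehicle library). The share of all genes at that level moved too, from 4.27% to 7.01% with DESeq2, 4.78% without a filter, 0.920% and 2.34% on leaving out the first or second DCA library, and 13.5% and 11.03% on leaving out the first or second vehicle library. The median log2 fold change of the 49 genes ran from -0.31 (vehicle replicate 1 left out) to 0.0023 (vehicle replicate 2 left out), and was -0.21 under median-of-ratios scaling.

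Directions were counted for 21 genes, the most abundant of each role group and those past an unadjusted p of 0.05 or without overlap. Of these, 19 kept their direction under the 9 alternatives that used all libraries and 15 with each library left out. The log2 fold change of Orc6 was -0.022 with median-of-ratios scaling and -0.021 with DESeq2. That of Prim1 was -0.030 with median-of-ratios scaling, -0.0093 with total counts, -0.028 with DESeq2, -0.0020 with limma, -0.0019 with the replicate block and -0.018 with DCA replicate 2 thinned. With each library left out the range was -0.33 to 0.42 for Orc6, -0.16 to 0.16 for Prim1, -0.60 to 0.061 for Gmnn, -0.46 to 0.065 for Pcna, -0.66 to 0.052 for Rrm2 and -0.48 to 0.14 for Chaf1b. The cause was not tested. Uhrf1, not among the 21 and at -0.02 with all libraries, was positive under 3 of 13 alternatives. By coding length the highest mean level was 7.95 times the lowest for licensing factors (5.41 per kilobase of exon), 2.65 times for Okazaki fragment maturation (1.57) and 4.33 times for chromatin restoration (7.70). The summed level of the 49 genes in DCA replicate 2 was 8189 CPM with median-of-ratios scaling.

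Whether same-numbered libraries share an origin is not stated. Deviations of the same-numbered libraries had a correlation of 0.0197 across genes, but with 2 libraries a treatment this cannot decide the question. With the replicate block the median log2 fold change was -0.14, 2 replication genes reached an unadjusted p under 0.05 and no gene an adjusted one. Every replication gene had 390 or more counts in every library, and the part of depth in the spread between libraries was not tested.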
